A study of Rattus norvegicus with 20 samples.

Results

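R706, R098, R272 and R511 are 4 of the 1185 probes on an expression array of rat lung that read low in the NL arrays and high both at Day 35 and in T. They were picked from measured values: for each of them the Day 35 and the T arrays lay far above the NL arrays. The series followed rats over time as pulmonary hypertension and neointimal growth in lung vessels developed. It used 20 arrays, each of total RNA from whole lung. NL had 5 arrays, numbered 2 to 6. Day 14 had 2 arrays (7 and 8), Day 21 had 3 (9 to 11), Day 28 had 3 (12 to 14), Day 35 had 3 (15 to 17) and T had 3 (18 to 20). One further array carries the title Normal Day 0. The labels expand neither NL nor T and give no day for T. They also give no strain, age, surgery, drug or dose for any group, and nothing in them ties an array to an animal. The spread between arrays, and every p-value resting on it, may therefore be technical.

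In pulmonary hypertension the pressure in the arteries of the lung is raised, and the small arteries are remodelled. A neointima is a layer of cells and matrix that forms inside the inner elastic layer of an artery and narrows its lumen. In whole lung RNA such vessels are a minor part of the tissue beside alveolar, airway and immune cells. A value from whole lung cannot tell more cells of a type from more RNA per cell.

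No gene could be named for the 4 probes. The identifiers matched 0 of the gene identifiers, symbols, synonyms and accessions in RefSeq's rat gene table, so roles, sequences and tissue markers are not given here. All 4 carry the prefix R, which 702 probes share, while 483 carry RG. The values are the authors' processed values: they have 2 decimals, are centred so that 0 is the middle of each array, and look logarithmic with no stated base. A difference is therefore given in deposited units and not as a fold. The arrays also differed in how widely their values spread. The interquartile range (the width of the middle of the values) was 0.42 to 1.49 in NL, 1.21 to 1.45 at Day 14, 0.64 to 1.75 at Day 21, 0.49 to 1.64 at Day 28, 1.07 to 1.28 at Day 35 and 0.61 to 1.54 in T. Ranks within an array, which do not depend on that spread, are given beside the values.

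The choice itself sets what the Day 35, T and NL values look like. Fitted with limma (one linear model over all groups), the difference from NL was 4.42 at Day 35 and 3.91 in T for R706. It was 3.35 and 3.27 for R098, 2.92 and 2.21 for R272, and 2.29 and 2.05 for R511. Of 1179 probes tested, 14 (1.19%) passed an adjusted p of 0.05 as higher at Day 35 and 4 (0.339%) as higher in T. The 4 probes are the ones in both counts. Since these comparisons chose them, nothing is read from their calls, whether kept or lost under the settings below. In T, 0 of the 4 passed when T array 19 or T array 20 was dropped, when NL arrays 4 to 6 were dropped together, or when the arrays were brought to one common interquartile range. In T, 3 passed after quantile normalization and when T array 18 was dropped (R098 was lost in both), and 3 when the Normal Day 0 array was counted with NL (R272 was lost). At Day 35, 0 passed when NL arrays 4 to 6 were dropped and 2 (R272 and R511) with the common range. All Day 35 arrays and all T arrays exceeded the highest NL array for each member, as they did for 4.58% and 3.05% of tested probes.

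No numeric threshold came with the choice. Ranked by the smaller of the Day 35 and T differences, R272 and R511 were the last members inside, at 2.21 and 2.05. R643 had a smaller difference of 2.69 and lay outside: its NL arrays ran from -0.03 to 4.73, so they spanned the levels of the other groups, and the Normal Day 0 array read 4.71. The next probes outside were R506 at 1.72, R656 at 1.67 and RG169 at 1.59. NL arrays spread widely for these too, from -0.07 to 1.78 for R506, from 1.76 to 6.29 for R656 and from 0.28 to 2.62 for RG169. The NL readings split by array. R643 read 4.34 and 4.73 in arrays 2 and 3 but 0.29, 0.05 and -0.03 in arrays 4 to 6. R506 and RG169 were also higher in arrays 2 and 3 than in arrays 4 to 6. R656 was low only in arrays 5 and 6. The interquartile range was 1.36 and 1.49 in arrays 2 and 3, and 0.91, 0.42 and 0.42 in arrays 4 to 6. Its part in the split was not tested.

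**Figure D1:**
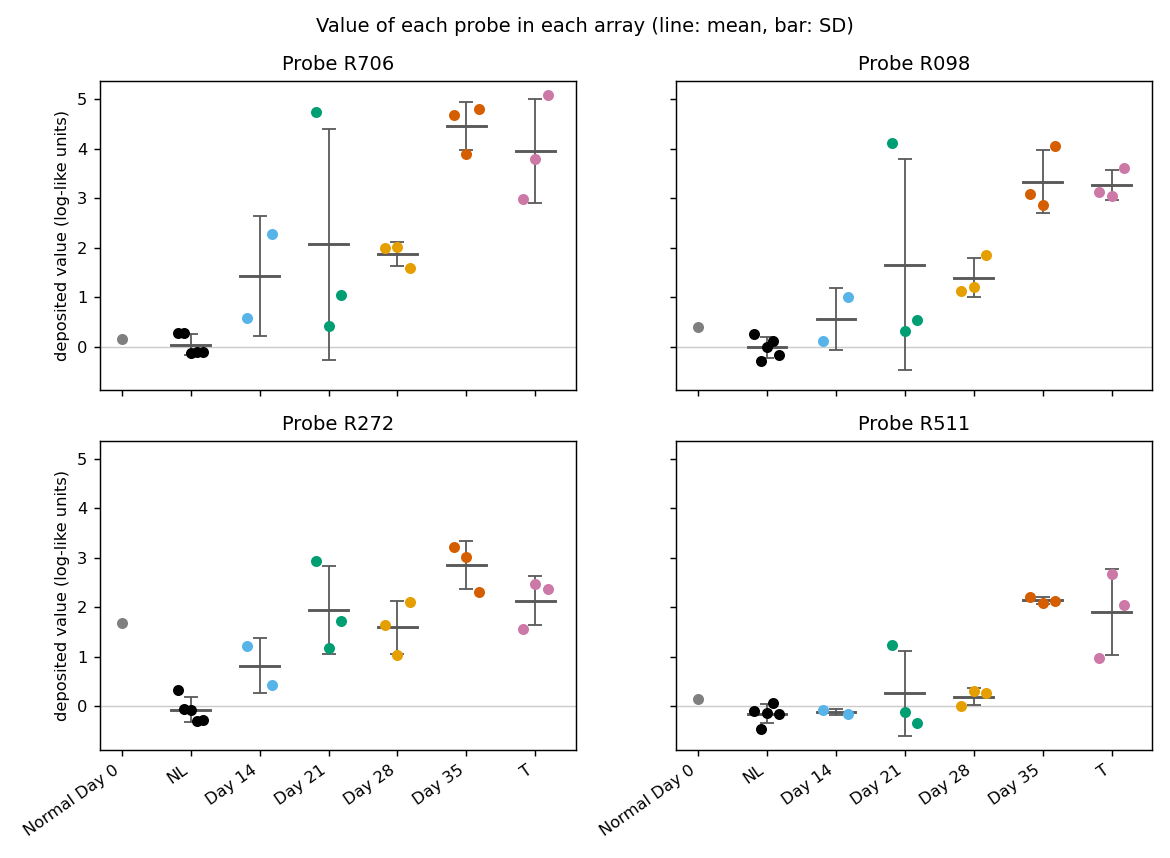
Deposited value of R706, R098, R272 and R511 in each of the 20 arrays, by group; points are arrays, the horizontal line is the group mean and the bar is 1 SD (none for the single Normal Day 0 array). The Day 35 and T points lie above all NL points for each probe, and in Day 21 a single array, number 9, stands above the other Day 21 points.

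R706 had the largest rise of any probe tested, both at Day 35 and in T. In NL it read 0.28, 0.28, -0.12, -0.11 and -0.11 in arrays 2 to 6, which is close to the middle of each array. At Day 35 it read 4.68, 3.90 and 4.80, and in T 2.99, 3.78 and 5.08. These readings placed it between 14th and 21st from the top of 1185 probes at Day 35 and between 15th and 35th in T, against 482nd to 772nd in NL. The days before were intermediate and uneven. Day 14 read 0.57 and 2.28, Day 21 read 4.73, 0.42 and 1.05, and Day 28 read 1.99, 2.02 and 1.59. All of these arrays lay above the highest NL array, and also above the Normal Day 0 array, which read 0.16. In deposited units the 3 Day 28 arrays agreed closely, at 1.87 ± 0.24 (SD, n = 3), while Day 21 varied as 2.07 ± 2.33 (n = 3). By rank the Day 28 arrays differed: R706 was 127th, 48th and 177th in arrays 12 to 14. Their interquartile ranges were 1.59, 0.49 and 1.64.

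R098 followed R706 closely at a smaller amplitude. It read 0.25, -0.28, 0.00, 0.12 and -0.16 in NL, and 0.40 in the Normal Day 0 array. At Day 14 it read 0.12 and 1.01, so Day 14 overlapped NL. Day 21 again held one high array: the values were 4.11, 0.32 and 0.53. Day 28 read 1.13, 1.20 and 1.85, entirely above NL, Day 14 and Normal Day 0. R098 read 3.09, 2.86 and 4.05 at Day 35 and 3.12, 3.05 and 3.61 in T, all above the Day 28 arrays. The high Day 21 array, at 4.11, lay above all of these readings. Day 35 and T had served to choose R098, so their height describes the choice. R098 ranked between 26th and 51st at Day 35 and between 27th and 62nd in T, against 407th to 867th in NL.

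R272 differed from the other 3 in its baseline. It read 0.33, -0.06, -0.07, -0.29 and -0.27 in NL, but 1.69 in the Normal Day 0 array, where it ranked 104th against 460th to 1129th in NL. Day 14 read 1.21 and 0.43, both below Normal Day 0. Day 21 read 2.93, 1.18 and 1.72 and Day 28 read 1.65, 1.04 and 2.10, so both days lay on either side of the Normal Day 0 reading. At Day 35 it read 3.22, 3.02 and 2.31, all above that reading, and in T 1.57, 2.46 and 2.37, of which array 18 was below it. Array 18 had a narrow interquartile range, at 0.61 against 0.92 in the Normal Day 0 array. By rank R272 was 76th, 90th and 92nd in the T arrays, each above its 104th place in the Normal Day 0 array. How far R272 rose thus depends on which baseline is used. The Day 35 mean stood 2.92 above NL but 1.16 above the Normal Day 0 reading, and in T the corresponding values were 2.21 and 0.44. Once the Normal Day 0 array was counted with NL, the differences were 2.63 and 1.91.

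R511 stayed near the NL level through Day 28. It read -0.09, -0.46, -0.14, 0.07 and -0.15 in NL, 0.15 in the Normal Day 0 array, and -0.08 and -0.16 at Day 14. Day 21 read 1.24, -0.12 and -0.34, and Day 28 read 0.00, 0.31 and 0.27. Only Day 21 array 9 among these 8 arrays of Days 14 to 28 exceeded 1 unit. The Day 35 arrays then read 2.21, 2.08 and 2.12, close to each other, at 2.14 ± 0.07 (SD, n = 3). The T arrays read 0.97, 2.68 and 2.05, a spread of 0.86 (SD, n = 3) that reached down to below the highest Day 21 reading.

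**Figure D2:**
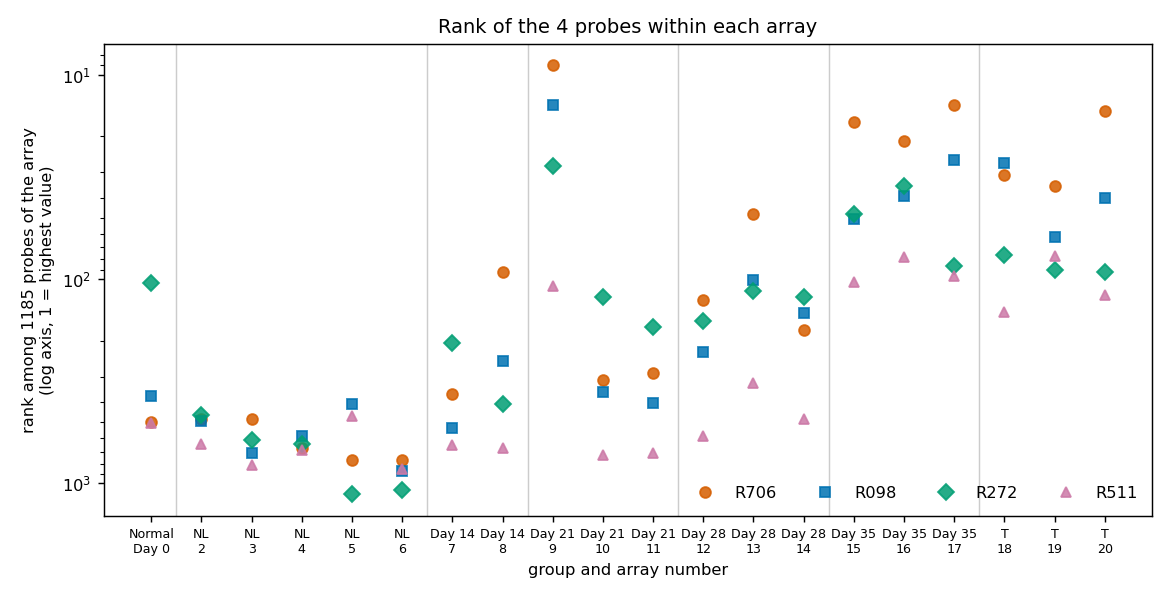
Rank of each probe among the 1185 probes of an array, on a reversed log axis where 1 is the highest value, with arrays in groups separated by vertical lines. Ranks run from 407 to 1129 in NL and improve to between 14 and 103 at Day 35 and between 15 and 145 in T. In Day 21 array 9, R706 ranks 9th, R098 14th, R272 28th and R511 108th.

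The groups ordered in much the same way for the 4 probes, although few neighbours in the order were separated. NL had the lowest mean and Day 35 the highest for each of them, with T next to Day 35. Day 28 had a lower mean than Day 21 for all 4, with overlapping ranges. Without Day 21 array 9 that order turned for all 4, and the differences from NL were 0.69, 0.44, 1.52 and -0.08 at Day 21 against 1.82, 1.41, 1.67 and 0.35 at Day 28 for R706, R098, R272 and R511. Day 35 and T ranges overlapped for each probe. Every Day 35 array lay above every Day 28 array for 4 of 4 members, a pattern shown by 5.68% of all tested probes. Every T array lay above every Day 28 array for 3 of 4 (2.88% of tested probes), all but R272. Day 35 and T had served to choose the members, so these counts describe the choice. Day 35 and T also lay above the Normal Day 0 array in every array for 4 and 3 members, against 17.0% and 12.2% of tested probes. R272 in T was the exception in deposited units. By rank its T arrays (76th to 92nd) lay above the Normal Day 0 array (104th) and the Day 28 arrays (114th to 160th).

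**Figure D3:**
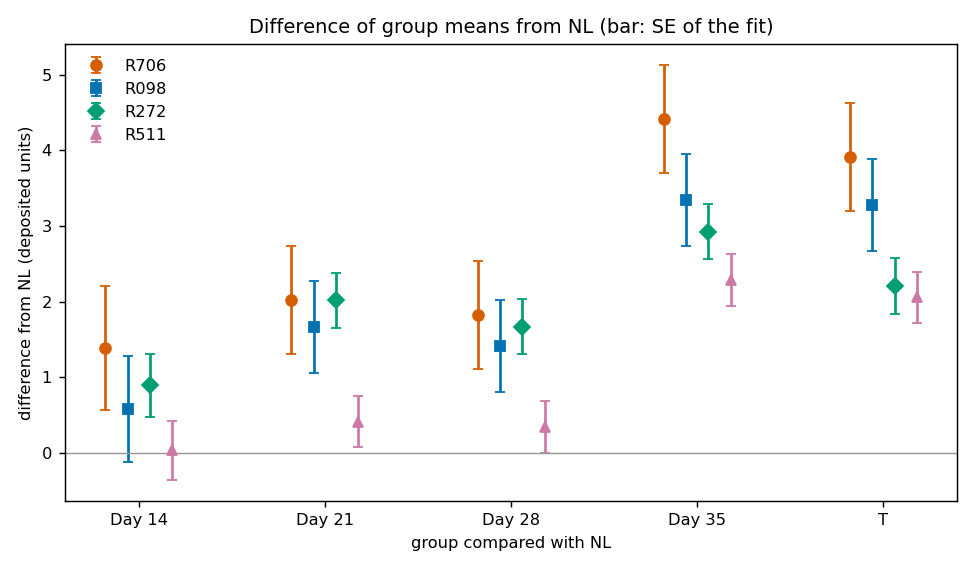
Difference of each group mean from the NL mean in deposited units for the 4 probes, with the standard error of the limma fit as bars; all 5 comparisons share the NL arrays. R511 lies near 0 from Day 14 to Day 28 and above 2 at Day 35 and in T, while the other 3 probes already lie above 0 on the earlier days.

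The earlier days were set against NL as a description, since low NL values were part of the choice and favour positive differences. At Day 14 the differences were 1.38 (SE 0.82) for R706, 0.58 (SE 0.70) for R098, 0.89 (SE 0.42) for R272 and 0.03 (SE 0.39) for R511. At Day 21 they were 2.02, 1.67, 2.02 and 0.41 in the same order, and the values without array 9 are those given above. At Day 28, where no single array stood apart in deposited units, they were 1.82 (SE 0.71), 1.41 (SE 0.61), 1.67 (SE 0.37) and 0.35 (SE 0.34). The median difference of all tested probes was -0.02 at Day 14 and at Day 21 and -0.07 at Day 28. Both Day 14 arrays exceeded the highest NL array for R706 and R272 (2.88% of tested probes did so). At Day 21 this held for R706, R098 and R272 (1.95%), and at Day 28 for the same 3 probes (1.70%). R511 was in none of these counts.

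Comparisons among means of groups outside the choice were tested next. Their spread was estimated over all replicated groups, NL, Day 35 and T included. Whether the members changed among Day 14, Day 21 and Day 28 was tested with limma's moderated F-test over all 1179 probes. R272 gave the smallest unadjusted p of the 4, at 0.0737, and R098 gave 0.366, R511 0.662 and R706 0.773. The adjusted p by limma was 0.9995 for each. Across all tested probes 0 were called (0%), and 9 had an unadjusted p under 0.05 where 58.95 are expected by chance. From Day 14 to Day 28 the members' means differed by 0.44 (95% interval -1.45 to 2.33) for R706, 0.83 (-0.78 to 2.44) for R098, 0.78 (-0.19 to 1.74) for R272 and 0.31 (-0.59 to 1.22) for R511. All 4 differences were positive, though that of R706 was -0.41 without Day 14 array 7 and 1.30 without Day 14 array 8. None passed (limma adjusted p = 1 for each), and the median over all tested probes was -0.03. Again 0 probes were called in either direction, with 21 at an unadjusted p under 0.05. A change of more than 1 unit between these days was thus within the interval of each member. Without Day 14 array 8, where the lone Day 14 array left was taken to have the spread of the rest, 8 probes were called by the F-test and 11 as lower at Day 28 than at Day 14, with no member among them.

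The Normal Day 0 array, which also took no part in the choice, gave a second baseline. The mean of the Day 14, Day 21 and Day 28 means lay above it by 1.63 (95% interval -0.57 to 3.83) for R706 and by 0.80 (-1.07 to 2.67) for R098. Without Day 21 array 9 these values were 1.18 and 0.39. For R272 the difference was -0.24 (-1.36 to 0.89) and for R511 -0.04 (-1.09 to 1.02). None passed: the limma adjusted p was 0.983 for R706, R098 and R272 and 0.990 for R511. The single array was taken to have the spread of the replicated groups, which makes the intervals wide. By limma 0 of 1179 probes were called in either direction, with 24 at an unadjusted p under 0.05. R706 was the one member for which all 8 arrays of Days 14 to 28 lay above the Normal Day 0 array, as 4.75% of tested probes did.

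T and Day 35 were compared as a description, since both had to be high for a probe to be picked. T minus Day 35 was -0.51 for R706, with a 95% interval from -2.20 to 1.18. R098 differed by -0.07 (-1.51 to 1.36), R272 by -0.72 (-1.58 to 0.15) and R511 by -0.24 (-1.05 to 0.57). All 4 means were lower in T, as was the median of all tested probes, (-0.08), and all 4 intervals included 0. The signs of 2 of them rested on single arrays: without T array 18 the difference of R511 was 0.23, and without Day 35 array 17 that of R098 was 0.29. The difference of R098 was also positive, at 0.33, with the arrays at a common interquartile range. Within T the members did not share one order of arrays. In deposited units array 20 was the highest for R706 and R098, and array 19 for R272 and R511. In the same units array 18 was the lowest for R706, R272 and R511 but not for R098. The interquartile range of array 18, at 0.61, was the narrowest in T. By rank array 18 was the lowest placed T array for R511 only, at 145th. It was the highest placed for R098 (27th) and R272 (76th). For R706 array 18 (31st) lay between array 20 (15th) and array 19 (35th).

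Day 21 array 9 stood apart from the other Day 21 arrays on these probes. It read 4.73 for R706, 4.11 for R098, 2.93 for R272 and 1.24 for R511, while the higher of arrays 10 and 11 read 1.05, 0.53, 1.72 and -0.12. Among all 1185 probes the excess of array 9 over both other Day 21 arrays was largest for R706 (3.68) and R098 (3.58). R511 (1.36) was in place 4 and R272 (1.21) in place 5. The probe in place 3 was R017, at 1.79, named here after its values were seen; it read 2.30 in array 9 against 0.44 and 0.51 in the others. In deposited units array 9 lay inside the Day 35 range for R706 and R272. For R098 its 4.11 lay just above the highest Day 35 array at 4.05, and for R511 it stayed below that range. By rank it placed R706 9th, R098 14th and R272 28th, higher than in any Day 35 or T array. R511 was 108th in it, below the Day 35 arrays (78th to 103rd) and within the T range (77th to 145th). Over all probes, array 9 was not closest to its own group. The other arrays were not compared with their groups in this way, so whether array 9 is unusual here is not known. Its Spearman correlation was highest with T array 18, at 0.915, followed by the Normal Day 0 array, at 0.890, and Day 14 array 7, at 0.877. With T arrays 20 and 19 it was 0.873 and 0.752. With the Day 35 arrays it was 0.847 to 0.859 and with the other Day 21 arrays 0.742 and 0.852. The interquartile range of array 9 was 0.64, among the narrower ones, and its part in these readings was not tested.

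**Figure D4:**
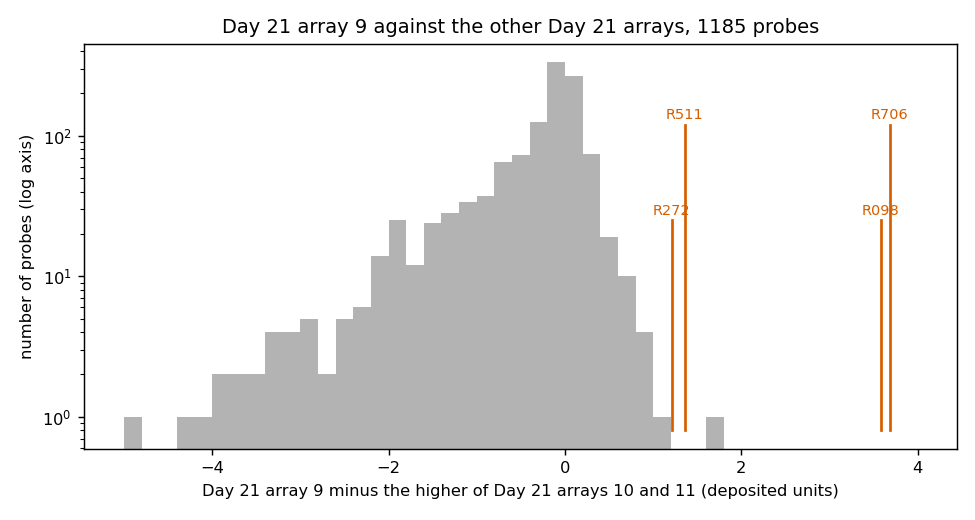
Number of probes (log axis) by the excess of Day 21 array 9 over the higher of Day 21 arrays 10 and 11, in deposited units; grey bars are the other probes and orange lines mark the 4 members. R706 and R098 lie at 3.68 and 3.58, beyond all other probes, and R511 and R272 at 1.36 and 1.21.

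The 4 probes were also compared with each other over arrays, as a description. Across all 20 arrays Pearson's r was 0.964 between R706 and R098, 0.881 between R706 and R511, 0.883 between R098 and R511, 0.826 between R706 and R272, 0.828 between R098 and R272 and 0.777 between R272 and R511. The median over all pairs of probes was 0.02. These values include the group means that the choice used, so the deviations of arrays from their group means were used as well, over 19 arrays. There r was 0.886 for R706 with R098, a value that 2.14% of all pairs of probes reached. For the other 5 pairs it ran from 0.522 to 0.664, reached by 12.0% to 20.0% of all pairs. These values rested on Day 21 array 9, almost wholly so for 3 of the pairs. The shares of all pairs were not worked out without it. Without it, over 18 arrays, r was 0.558 for R706 with R098, 0.383 for R272 with R511 and 0.250 for R706 with R511. For the other 3 pairs it ran from -0.16 to 0.08. Over the same 19 arrays, r between a member's deviations and those of the interquartile range was 0.03 for R706, -0.14 for R098, 0.35 for R272 and -0.07 for R511. This covers differences within groups only.

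**Figure D5:**
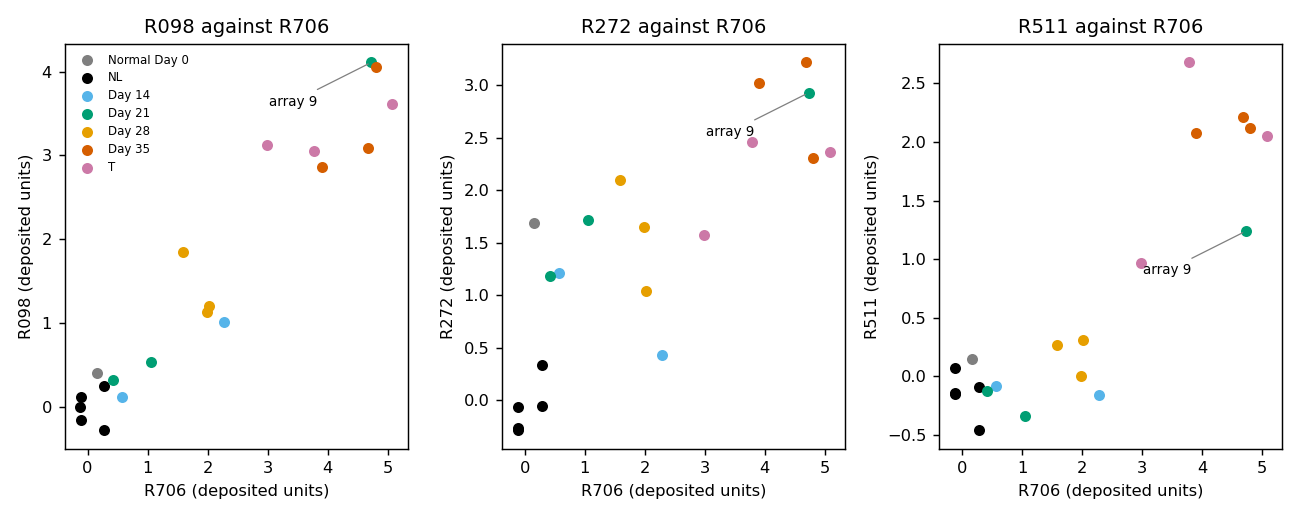
Deposited values of R098, R272 and R511 against R706 in each of the 20 arrays, coloured by group, with Day 21 array 9 marked. R098 rises with R706 through the intermediate arrays, whereas R511 stays near 0 until R706 is close to 3 or above.

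The probes most like each member were found by Pearson's r over the 20 arrays. That r includes the NL, Day 35 and T means behind the choice, which favours other probes high at Day 35 and in T. For R706 they were R098, R511 and R017 (r = 0.854), and for R098 they were R706, R511 and R017 (0.833). For R272 they were R017 (0.910), RG351 (0.839) and RG534 (0.829), and for R511 they were R510 (0.883), R098 and R706. R017 was therefore near each member, and in place 4 for R511 at 0.810. R017 read 0.03 in NL, 1.26 at Day 28, 2.38 at Day 35 and 1.42 in T (group means), so its T level lay closer to Day 28 than to Day 35. It read 0.58 in the Normal Day 0 array.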

How the data were processed

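One deposited table was used, holding a score for each of 1185 probes in each of 20 arrays. The authors processed these values before they deposited them, but the sources used here name no platform, background correction, normalization or logarithm base. Array medians lay between -0.01 and 0. Signal over background is unknown, and the number of arrays limits the precision.

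Groups came from the array titles, whose running numbers are unique and pair nothing. A probe was tested if it exceeded -0.32, the 25th percentile, in 3 or more of the 19 arrays other than Normal Day 0; 1179 passed, the 4 members included. limma 3.58.1 (R 4.3.3) fitted one mean per group by lmFit and eBayes, with 13 residual degrees of freedom. Tests were two-sided, with Benjamini-Hochberg adjustment over all tested probes and a threshold of 0.05. The fit was run on simulated data with independent normal noise. That noise does not copy the differences in spread between these arrays, so nothing about them is drawn from it. Named probes were the members, the 3 most correlated with each over 20 arrays, and the 4 next in the ranking of the choice. The members, comparisons and lists were chosen with earlier results of these data known. Figures used matplotlib 3.10.9.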

Additional observations from a re-analysis of the deposited data

How the results depend on the processing

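Quantile normalization, a common interquartile range, a floor at the 20th percentile and leaving out each array of the replicated groups compared were run for every difference. No filter, trended and robust variances and fits to only the groups compared were run for the 3 tests, and the Normal Day 0 array added to NL and the fit without NL arrays 4 to 6 for the differences from NL. The Day 35 and T differences from NL chose the members, so their sign was favoured in advance. With a common interquartile range the standard error of R706 at Day 35 was 1.40, against 0.71 in the main fit. Under the settings run for them, the members' Day 35 and T differences from NL stayed positive and moved by less than 1 residual SD (0.98 for R706) in all 104 values. They ran from 4.18 to 4.70 for R706, 2.99 to 3.58 for R098, 2.63 to 3.19 for R272 and 2.11 to 2.41 for R511 at Day 35. In T they ran from 3.34 to 4.39, 3.05 to 3.74, 1.91 to 2.54 and 1.66 to 2.52. The Day 21 differences moved by more in 6 values: with a common interquartile range they were 3.44 for R706, 2.85 for R098 and 3.16 for R272, and the rest came from leaving out array 9. In the 3 tests that used neither NL, Day 35 nor T means, no member was called in any of 300 values (smallest limma adjusted p 0.854). Over all probes the count lower than Normal Day 0 on Days 14 to 28 was 2 after quantile normalization, 2 with a common interquartile range, 2 with trended and robust variances, and 0 to 1 when one array was left out. Leaving out one array gave 0 to 8 calls in the F-test and 0 to 11 as lower at Day 28 than at Day 14. The correlation of deviations between R098 and R272 was 0.522, and -0.16 without Day 21 array 9, 0.221 by Spearman and 0.671 after quantile normalization. No paired analysis was possible because each array title carries a number of its own.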

Other observations

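Members were set against the probes with adjacent identifiers, a comparison made only after the values were examined. The r over 20 arrays includes the NL, Day 35 and T means behind the choice, so r of the deviations from group means over 19 arrays is given too. R510, which precedes R511, was the probe most like it (r = 0.883; 0.654 for deviations). R510 averaged -0.37 in NL, -0.36 at Day 28, 0.61 at Day 35 and 0.75 in T. R705, which precedes R706, had r = 0.718 with it (0.334 for deviations) and averaged -0.26 in NL, -0.09 at Day 28, 0.75 at Day 35 and 0.54 in T. R707, which follows R706, had r = 0.621 (-0.04 for deviations). Of all pairs of adjacent identifiers, 2.79% reached the r of R510, 9.55% that of R705 and 14.5% that of R707. For deviations the r of R510 lay below 0.70, the 90th percentile over all pairs of probes. The other neighbours with a value had r of -0.09 and -0.08 for R098, 0.40 for R272 and -0.11 for R511. Whether adjacent identifiers are adjacent on the array, or stand for related sequences, is not given in the sources used here.

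In T, array 20 read 5.08 for R706 and exceeded the higher of the other T arrays by 1.30, the largest such excess of all 1185 probes in that array. R706 was chosen partly on its T values, which favours a high reading there. By the same measure it was in place 1149 in T array 18 and 1182 in T array 19.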
